A study of Homo sapiens with 12 samples.

Results

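Interferon-stimulated genes are the antiviral and immune genes that cells switch on after interferon signalling. A fixed list of 37 of them was read in A673 cells, and 35 were measured on the arrays out of 18404 genes that a probe set names by a single symbol. The list was matched to the arrays by gene symbol with no threshold on a value, it was drawn up with earlier results of these data known, and each of the 35 had 1 probe set. Of the remaining pair, STAT2 was not analysed here, and GBP1 shares its probe set with GBP3 and a GBP1 pseudogene and was not named from it.

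A673 is an established cell line from a Ewing sarcoma, a bone and soft tissue tumour of the young, and carries the EWS-FLI1 fusion, a transcription factor made of the start of EWS and the DNA-binding end of FLI1. RNA of whole cultures was hybridised to 12 Affymetrix HuGene 1.0 ST arrays in 6 groups of 2. Cells were untreated at time 0, or given DMSO vehicle, 5 nM or 50 nM actinomycin D for 24 h, or infected with a lentivirus that carried an shRNA against FLI1 or against lacZ, a bacterial gene used as the control target. Actinomycin D is a DNA-intercalating drug that blocks transcription, and the study asked whether a low dose acts on EWS-FLI1 target genes as loss of the fusion does. All groups carry the fusion. Both shRNA groups also received virus, Polybrene and puromycin, were plated sparser than the drug groups, and are labelled as harvested at 48 h, so an shRNA array differs from an untreated or DMSO array in all of these at once. The knock-down rests on 1 hairpin.

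Type I and type III interferons bind receptors on the cell surface that activate the kinases JAK1 and TYK2, which phosphorylate STAT proteins, STAT2 among them. These join IRF9 in the complex ISGF3, which binds the interferon-stimulated response element of its target genes, and other interferon regulatory factors can bind the same element directly after RNA sensors such as RIG-I and MDA5 detect viral RNA. The proteins made bind, cut or sequester foreign RNA, tag proteins with ISG15 or block viral entry, and a basal level of many of them is kept without infection.

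The core of the response element is a pair of GAAA blocks with 2 bases of any kind between them, which reads as a pair of TTTC blocks from the other strand. RefSeq promoter sequences (GRCh38.p14) from 250 bases before to 50 bases after the annotated start were held for 28 of the 35 measured genes. This motif of 10 bases, searched on both strands with overlapping matches allowed, was found in a promoter of 20 of these 28 genes, or 71.4%, against 4.13% of the 14228 tested genes with a promoter in the same table. The promoters of 6 genes around which the results turn follow, 5′ to 3′ on the strand of the gene, with each complete motif in capitals. They are IFIT1 (chr10:89392373-89392672, plus strand), IFIT3 (chr10:89327747-89328046, plus strand), IFIT5 (chr10:89414318-89414617, plus strand), IFI6 (chr1:27672143-27672442, minus strand), DDX60 (chr4:168318703-168319002, minus strand) and RIGI (chr9:32526147-32526446, minus strand). The first 5 hold 2 or 3 matches each, and RIGI holds none in this window. The RIGI promoter does hold a pair of GAAA blocks with 1 base between them, a spacing that the search did not count. The same spacing occurs in promoters of other genes counted as without the motif, for example OAS1 and XAF1.
IFIT1: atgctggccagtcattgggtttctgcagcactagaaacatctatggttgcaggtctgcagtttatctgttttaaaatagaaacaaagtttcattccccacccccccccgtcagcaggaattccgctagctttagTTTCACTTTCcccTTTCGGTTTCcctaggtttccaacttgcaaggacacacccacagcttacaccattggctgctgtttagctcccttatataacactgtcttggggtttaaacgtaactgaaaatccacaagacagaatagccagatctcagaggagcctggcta
IFIT3: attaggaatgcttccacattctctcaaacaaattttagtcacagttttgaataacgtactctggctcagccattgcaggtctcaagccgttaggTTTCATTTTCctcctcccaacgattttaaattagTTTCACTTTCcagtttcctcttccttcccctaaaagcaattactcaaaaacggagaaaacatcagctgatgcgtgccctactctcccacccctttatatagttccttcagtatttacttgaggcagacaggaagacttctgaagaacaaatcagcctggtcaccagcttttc
IFIT5: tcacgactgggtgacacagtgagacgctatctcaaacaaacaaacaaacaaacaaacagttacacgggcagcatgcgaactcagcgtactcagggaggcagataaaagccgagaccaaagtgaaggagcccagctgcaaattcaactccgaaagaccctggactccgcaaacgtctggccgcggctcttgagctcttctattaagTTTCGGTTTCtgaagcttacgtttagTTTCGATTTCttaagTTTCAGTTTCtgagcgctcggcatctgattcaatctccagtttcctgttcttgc
IFI6: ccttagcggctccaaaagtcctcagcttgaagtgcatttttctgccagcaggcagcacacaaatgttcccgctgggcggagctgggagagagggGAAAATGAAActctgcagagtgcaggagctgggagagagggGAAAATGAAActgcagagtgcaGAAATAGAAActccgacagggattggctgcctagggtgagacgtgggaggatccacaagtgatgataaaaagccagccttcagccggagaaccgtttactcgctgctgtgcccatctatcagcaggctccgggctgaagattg
DDX60: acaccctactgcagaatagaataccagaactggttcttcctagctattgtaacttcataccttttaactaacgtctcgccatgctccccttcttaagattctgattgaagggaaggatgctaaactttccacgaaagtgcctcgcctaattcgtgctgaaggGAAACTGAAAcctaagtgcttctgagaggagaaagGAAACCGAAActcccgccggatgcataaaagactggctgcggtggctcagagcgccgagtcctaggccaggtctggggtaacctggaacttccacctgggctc
RIGI: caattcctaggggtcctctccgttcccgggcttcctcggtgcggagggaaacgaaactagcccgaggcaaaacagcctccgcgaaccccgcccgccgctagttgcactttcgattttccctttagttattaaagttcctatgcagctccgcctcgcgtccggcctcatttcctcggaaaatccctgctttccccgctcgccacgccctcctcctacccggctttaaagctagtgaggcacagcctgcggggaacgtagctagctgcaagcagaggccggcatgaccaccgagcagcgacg
Windows of 40 bases around the first match are given for 7 further genes, to show how the motif varies in its spacer bases and in its distance from the start. These are IFI44L (chr1:78620269-78620308, plus strand), IFIH1 (chr2:162318819-162318858, minus strand), EIF2AK2 (chr2:37156962-37157001, minus strand), SAMD9 (chr7:93118091-93118130, minus strand), PARP9 (chr3:122564317-122564356, minus strand), PARP14 (chr3:122680795-122680834, plus strand) and ISG15 (chr1:1013369-1013408, plus strand).
IFI44L: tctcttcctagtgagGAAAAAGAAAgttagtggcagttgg
IFIH1: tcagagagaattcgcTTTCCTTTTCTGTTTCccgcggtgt
EIF2AK2: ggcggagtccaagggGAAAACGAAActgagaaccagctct
SAMD9: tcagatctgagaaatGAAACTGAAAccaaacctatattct
PARP9: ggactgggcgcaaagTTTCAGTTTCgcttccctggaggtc
PARP14: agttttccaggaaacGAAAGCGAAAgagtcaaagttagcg
ISG15: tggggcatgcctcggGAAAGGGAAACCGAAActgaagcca
Genes with and without the motif were set side by side, and no test of the difference between them was run. Of all genes tested 14.6% were higher and 9.28% lower with the knock-down, and 30.3% and 23% at 5 nM. At 50 nM the shares were 25.8% and 23.3%, and between the doses 21.6% and 23.1%. Calls of other tested genes with the motif were not counted. In the knock-down comparison the median log2 change was 0.52 over the 20 genes with the motif, of which 11 rose, and 0.42 over the 8 without it, of which 5 rose. At 5 nM actinomycin D 6 of the 20 rose and 3 fell, and of the 8 without it 3 rose and 1 fell. At 50 nM 1 of the 20 rose and 5 fell, and of the 8 without it 2 rose and 1 fell. At 50 nM against 5 nM 3 of the 20 were higher and 8 lower with a median of −0.20, and of the 8 without the motif 0 were higher and 1 lower with a median of 0.02. A second motif, 2 GGAA blocks side by side, GGAA being the block that ETS factors such as FLI1 bind, was searched in the same way on both strands and was present in 3 of the 28 genes, or 10.7%, against 5% of the tested genes with a promoter.

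The arrays were alike in overall signal. Median log2 signals lay between 6.67 and 6.83, and the correlation of arrays of a group across all genes between 0.994 and 0.996. FLI1, the targeted gene, read 7.30 and 7.08 in the FLI1 shRNA arrays and 8.63 and 8.45 in the lacZ shRNA arrays, so both knock-down arrays lay below both controls (log2 change −1.35). The probe set does not separate the fusion from FLI1 itself. FLI1 also read 7.71 and 7.60 at 50 nM against 8.59 and 8.61 with DMSO. As a check of the cell type, the 5 Ewing sarcoma markers measured (CD99, NKX2-2, STEAP1, CAV1 and LIPI) all lay above the 95th percentile of 340 olfactory receptor genes, a family that most cells do not use, with an array mean between 10.9 and 11.7.

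Many interferon-stimulated genes were dim in these cells. The mean log2 signal over the 12 arrays ran from 3.94 for TRIM22 to 10.3 for EIF2AK2 with a median of 6.57, against a median of 7.45 over all genes. The olfactory receptor genes had a median of 4.56 and a 95th percentile of 6.04. Of the 35 genes 21 lay above that percentile and 14 at or below it, and 20 lay below the 40th percentile of all genes. In the dim genes a change can be compressed by the array's background, so a log2 change there may understate the change in RNA. Near the level of the olfactory receptor genes a difference may also be one between background readings. In bulk RNA fewer cells expressing a gene and less RNA per cell cannot be told apart.

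The family moved most clearly with the knock-down. Against lacZ shRNA, 18 of the 35 genes rose, or 51.4%, where 14.6% of all genes tested were higher, and 1 fell, where 9.28% of all genes were lower (limma, adjusted p under 0.05). Their median log2 change was 0.35, against −0.01 over all genes. At the study's own thresholds (fold over 2 and adjusted p under 0.01) 3 of the 35 were higher, DDX60, SAMD9 and IFIT1, where 1.21% of all genes were. Of the 21 brighter genes 11 rose, and of the 14 dim ones 7. With each of the 4 arrays left out in turn, 11 of the 18 rises held throughout, and IFIT2, IFIT5, IFI35, OAS1, OASL, HERC6 and BST2 lost the call at least once. These p-values measure the spread between arrays of a group, which may be technical, because the labels do not say whether the 2 arrays come from separate cultures.

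With 5 nM actinomycin D the list as a whole stayed close to the background. Of the 35 genes 13 rose, or 37.1%, beside 30.3% of all genes, and 4 fell, or 11.4%, beside 23%, and the median of 0.13 lay next to 0.12 over all genes. Individual members moved far in both directions, from 1.55 for IFIT1 to −1.08 for RIGI. At the study's thresholds IFIT1, IFIT2 and IFI6 were higher, 3 genes beside 2.64% of all genes, and RIGI was lower, 1 gene beside 7.86%.

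With 50 nM 4 genes rose (25.8% of all genes were higher) and 7 fell (23.3% were lower). The median was −0.00 against 0.10 over all genes, and IFIT5 and RIGI were the 2 genes lower at the study's thresholds, beside 5.38% of all genes. The doses were then compared directly, since both are read against the same DMSO arrays. At 50 nM against 5 nM 3 genes were higher (21.6% of all genes) and 10 lower (23.1%), with a median of −0.12 against 0.02. Of the genes lower at 50 nM, 5 passed the study's thresholds (6.65% of all genes): IFIT1, IFIT2, IFIT5, PARP14 and IFIT3. Thus 31.4% of the list was called at 50 nM and 48.6% at 5 nM, beside 49% and 53.3% of all genes. Of the 5 nM calls 9 of 13 rises and 4 of 4 falls held with each array left out in turn (IFI27, OAS2, OASL and XAF1 did not), of the 50 nM calls 2 of 4 rises and 5 of 7 falls (IFI35, IRF7, IFIT2 and IFIH1 did not), and of the calls between the doses 2 of 3 and 8 of 10 (IFI44L, SAMD9 and HERC5 did not).

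**Figure D1:**
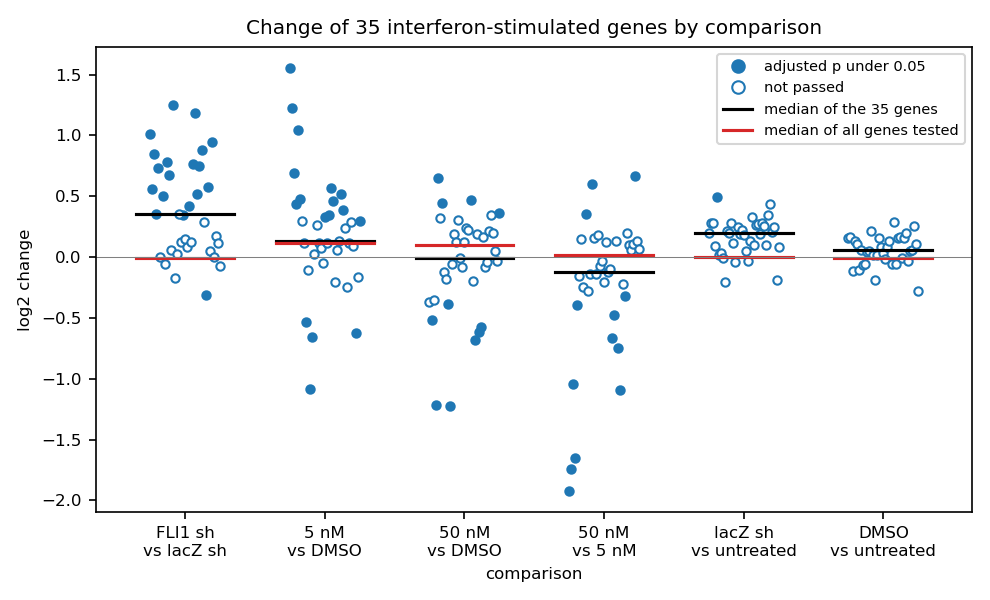
Log2 change of each of the 35 genes (points, filled where the adjusted p was under 0.05) in 6 comparisons, with the median of the 35 genes (black line) and of all genes tested (red line). The medians are 0.35 and −0.01 in the knock-down comparison and lie closer together at 5 nM, at 0.13 and 0.12.

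The control comparisons gave few calls. In lacZ shRNA against untreated cells IFI6 alone rose, 1 of 35 beside 0.815% of all genes, and none fell, beside 2.26%. The median log2 change of the 35 was nevertheless 0.20 against −0.00 over all genes. Of the 35 changes 30 were above 0, beside 9051 of 18404 over all genes. At an unadjusted p under 0.05 by limma 10 were higher and 0 lower. In DMSO against untreated cells 0 genes rose (0.00543% of all genes were higher) and 0 fell (0%) by limma, the median was 0.06 against −0.00, and 1 was higher and 1 lower at an unadjusted p under 0.05. Shares of all genes at an unadjusted p were counted for neither control comparison.

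**Figure D2:**
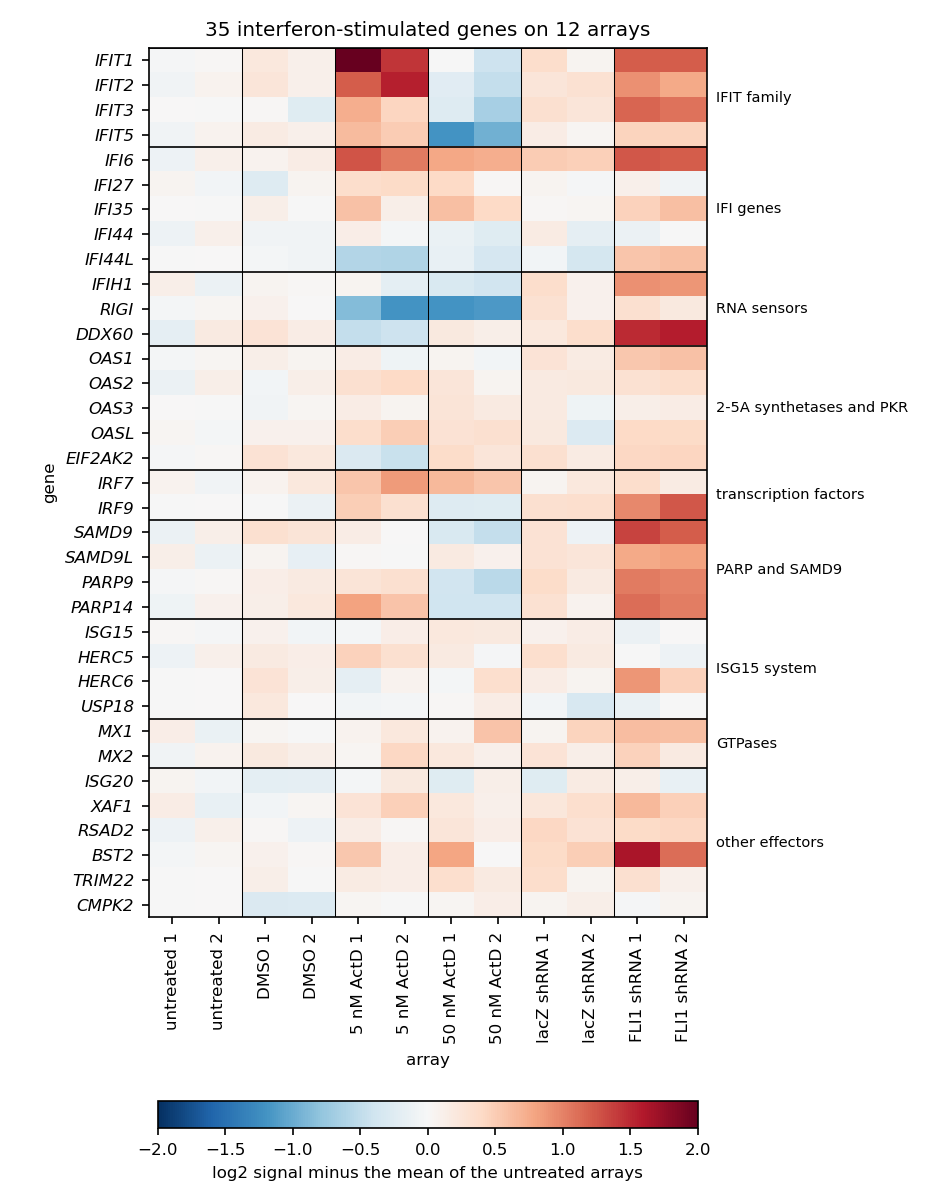
Log2 signal of the 35 genes (rows, grouped by role) on the 12 arrays (columns), as the difference from the mean of the untreated arrays; red is higher and blue lower. The FLI1 shRNA columns are red in most groups of genes, while at 5 nM the IFIT rows and IFI6 are red and RIGI, DDX60 and IFI44L are blue.

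The IFIT genes, neighbours on chromosome 10 whose proteins bind viral RNA or hold back its translation, moved as a block. All 4 rose with the knock-down, all 4 rose at 5 nM, and all 4 were lower at 50 nM than at 5 nM. IFIT1, whose protein recognises RNA caps that lack a methyl group, read 6.03 and 6.08 in untreated cells, 6.26 and 6.16 with DMSO, 8.05 and 7.49 at 5 nM, 6.05 and 5.65 at 50 nM, 6.41 and 6.11 with lacZ shRNA and 7.27 and 7.26 with FLI1 shRNA. The 5 nM and FLI1 shRNA arrays were thus the highest 4 of the 12. Its log2 change was 1.01 ± 0.18 (SE; n = 2 against 2; adjusted p = 0.00192) with the knock-down and 1.55 ± 0.18 (adjusted p = 2.5e-05) at 5 nM, and the step from 5 nM to 50 nM was −1.92 ± 0.18 (adjusted p = 4.59e-06).

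IFIT2, which also promotes cell death when overexpressed, was dimmer and had the same order. It read 5.46 and 5.31 with DMSO, 6.44 and 6.78 at 5 nM, 5.00 and 4.74 at 50 nM, 5.46 and 5.53 with lacZ shRNA and 6.13 and 5.98 with FLI1 shRNA. It was the one IFIT gene whose rise at 5 nM (1.22 ± 0.13) was larger than its rise with the knock-down (0.56 ± 0.13) by the test of the difference itself (−0.67 ± 0.18, adjusted p = 0.0109), and this difference was no longer called with ribosomal protein centring (−0.32, adjusted p = 0.216) or with the trend on gene span removed (−0.36, adjusted p = 0.12).

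IFIT3, which steadies the IFIT complex, read 6.58 and 6.32 with DMSO, 7.29 and 6.98 at 5 nM, 6.31 and 5.89 at 50 nM, 6.88 and 6.80 with lacZ shRNA and 7.73 and 7.64 with FLI1 shRNA, so that for IFIT3 the knock-down arrays were the highest of all. The rises were 0.85 ± 0.14 with the knock-down and 0.69 ± 0.14 at 5 nM, and their difference did not pass (0.16 ± 0.20, adjusted p = 0.535). IFIT5, the brightest of the family, read 7.98 and 7.93 with DMSO, 8.45 and 8.32 at 5 nM, 6.62 and 6.85 at 50 nM, 7.96 and 7.86 with lacZ shRNA and 8.26 and 8.26 with FLI1 shRNA. Its 50 nM arrays were the lowest of the 12, with a log2 change of −1.22 ± 0.09 against DMSO (adjusted p = 2.45e-06), next to rises of 0.35 ± 0.09 with the knock-down and 0.43 ± 0.09 at 5 nM. Of the family only IFIT5 lost its 5 nM call with ribosomal protein centring (0.10, adjusted p = 0.402).

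Among the genes named for interferon-inducible proteins, IFI6, a small membrane protein that restrains flaviviruses, rose with the knock-down, at both doses and with lacZ shRNA. It read 9.44 and 9.65 in untreated cells, 9.61 and 9.69 with DMSO, 10.8 and 10.6 at 5 nM, 10.3 and 10.3 at 50 nM, 10.06 and 10.02 with lacZ shRNA and 10.8 and 10.8 with FLI1 shRNA. Both lacZ shRNA arrays lay above all untreated and DMSO arrays, and both FLI1 shRNA arrays above those. The log2 changes were 0.73 ± 0.09 with the knock-down, 1.04 ± 0.09 at 5 nM, 0.65 ± 0.09 at 50 nM and 0.50 ± 0.09 for lacZ shRNA against untreated cells (adjusted p = 0.0243), the last of which did not hold when any 1 of its 4 arrays was left out.

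IFI44L, a gene best known as a blood marker of viral infection, went in opposite directions in the 2 arms. It read 8.98 and 8.94 with DMSO, 8.43 and 8.42 at 5 nM, 8.88 and 8.68 at 50 nM, 8.96 and 8.67 with lacZ shRNA and 9.57 and 9.63 with FLI1 shRNA. Neither pair overlapped its control, and the rise of 0.78 ± 0.10 with the knock-down and the change of −0.53 ± 0.10 at 5 nM differed by 1.32 ± 0.14 (adjusted p = 2.23e-05). Its neighbour on chromosome 1, IFI44, was called in no comparison, with changes of −0.05 ± 0.12 and 0.12 ± 0.12.

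IFI35, which binds the interferon-inducible protein NMI, rose with the knock-down (0.50 ± 0.13) and at 50 nM (0.45 ± 0.13). It read 8.19 and 8.34 with FLI1 shRNA, 7.75 and 7.77 with lacZ shRNA, 8.33 and 8.13 at 50 nM and 7.84 and 7.73 with DMSO, and the arrays of each pair lay above those of their control. The 50 nM call was lost with ribosomal protein centring (0.19, adjusted p = 0.232) and with the trend on gene span removed (0.28, adjusted p = 0.128). IFI27, a mitochondrial protein gene often used to score interferon responses, rose at 5 nM alone among the called comparisons (0.47 ± 0.13, adjusted p = 0.0117), and its knock-down change was −0.00 ± 0.13. Its 5 nM call was lost under the same settings (0.14, adjusted p = 0.434, and 0.21, adjusted p = 0.197).

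The 3 RNA sensors did not follow the IFIT genes. DDX60, a helicase reported to aid RIG-I, read 4.92 and 4.79 with DMSO, 4.16 and 4.23 at 5 nM, 4.83 and 4.76 at 50 nM, 4.85 and 4.99 with lacZ shRNA and 6.13 and 6.21 with FLI1 shRNA. The FLI1 shRNA arrays were the only ones above the olfactory 95th percentile. Its rise of 1.25 ± 0.11 with the knock-down was the largest of the list (adjusted p = 2.17e-05), and with the change of −0.66 ± 0.11 at 5 nM (adjusted p = 0.00041) the 2 responses differed by 1.90 ± 0.15 (adjusted p = 3.23e-06).

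IFIH1, which encodes the sensor MDA5, read 6.41 and 6.37 with FLI1 shRNA against 5.84 and 5.58 with lacZ shRNA, a rise of 0.68 ± 0.12. At 50 nM it read 5.19 and 5.11 against 5.54 and 5.53 with DMSO, a log2 change of −0.39 ± 0.12, and its change of −0.10 ± 0.12 at 5 nM did not pass. RIGI, the sensor of RNA ends with a triphosphate, was called lower at both doses and was not called with the knock-down. It read 8.16 and 8.03 in the knock-down arrays and 8.15 and 7.92 in their controls, pairs that overlap. With the drug it read 6.97 and 6.63 at 5 nM and 6.64 and 6.69 at 50 nM, against 7.92 and 7.85 with DMSO. All 4 drug arrays lay below all 8 others, with log2 changes of −1.08 ± 0.11 at 5 nM (adjusted p = 1.41e-05) and −1.22 ± 0.11 at 50 nM (adjusted p = 1.03e-05). The difference between the responses to knock-down and 5 nM was called in all 3 sensors, at 1.90, 0.78 and 1.15 for DDX60, IFIH1 and RIGI, beside 22.8% of all genes higher in that comparison.

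Across the whole list 10 genes had a higher response to the knock-down than to 5 nM and 4 a lower one (22.8% and 23.7% of all genes), and the arms share no arrays. With each array left out in turn 8 of the 10 and 3 of the 4 held throughout, the exceptions being OAS1, SAMD9L and IRF7. Of the 35, 8 rose in both, and 2 (DDX60 and IFI44L) rose with the knock-down and fell at 5 nM. A further 8 were called as rises with the knock-down alone and 5 at 5 nM alone, and 9 were called in neither. Of all genes 14.6% were higher and 9.28% lower with the knock-down, and 30.3% and 23% at 5 nM. Combinations of the calls were not counted over all genes, so these counts have no background to be read against. The 8 that rose in both were IFIT1, IFIT2, IFIT3, IFIT5, IFI6, OASL, IRF9 and PARP14. As a description across these 35 genes, which are not independent, the correlation of the changes was weak, with Pearson's r of 0.13 and Spearman's rho of 0.10.

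**Figure D3:**
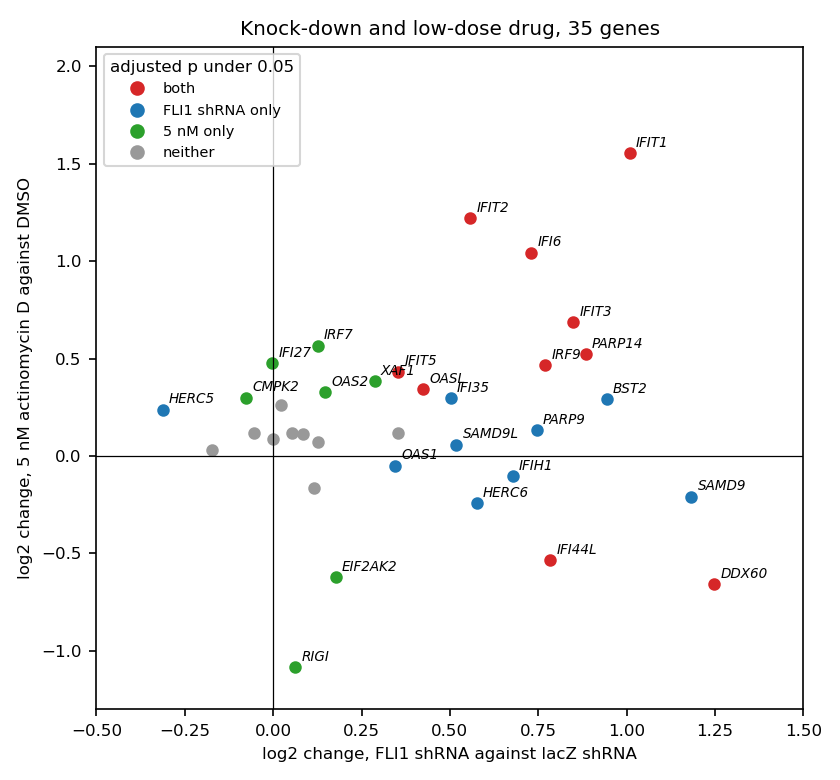
Log2 change with FLI1 shRNA (x axis) against log2 change at 5 nM actinomycin D (y axis) for the 35 genes, coloured by the comparison in which the adjusted p was under 0.05. IFIT1 lies high on both axes, and IFIT2 and IFI6 lie high on the y axis and to the right of 0. DDX60 and IFI44L lie to the right and below 0, and RIGI lies low near 0 on the x axis.

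The oligoadenylate synthetases make a short messenger that activates the nuclease RNase L, and EIF2AK2 encodes PKR, a kinase that stops translation when double-stranded RNA is present. OAS1 (0.35 ± 0.09) and OASL (0.42 ± 0.13) rose with the knock-down, and OAS2 (0.33 ± 0.10) and OASL (0.34 ± 0.13) at 5 nM. These are smaller than the IFIT1 and IFIT3 changes and near those of IFIT5, and the 4 calls were each lost when some single array was left out. With ribosomal protein centring the 5 nM changes of OAS2 and OASL were near 0 (−0.0081 and 0.0047) and not called. OAS3 was called nowhere. EIF2AK2 read 10.4 and 10.4 with DMSO, 9.85 and 9.69 at 5 nM, 10.5 and 10.4 at 50 nM, 10.5 and 10.3 with lacZ shRNA and 10.5 and 10.6 with FLI1 shRNA, so the 5 nM arrays stood below all others. It fell at 5 nM (log2 change −0.62 ± 0.08, adjusted p = 9.38e-05), was 0.67 ± 0.08 higher at 50 nM than at 5 nM, and its knock-down change of 0.18 ± 0.08 did not pass.

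Of the transcription factors in the list, IRF9, the DNA-binding part of ISGF3, rose with the knock-down and at 5 nM. It read 9.01 and 9.29 with FLI1 shRNA against 8.37 and 8.39 with lacZ shRNA, 8.55 and 8.37 at 5 nM against 8.05 and 7.94 with DMSO, and 7.79 and 7.80 at 50 nM. The knock-down arrays were the highest and the 50 nM arrays the lowest of the 12, with changes of 0.77 ± 0.10, 0.47 ± 0.10 and, from 5 nM to 50 nM, −0.66 ± 0.10. IRF7, the factor that amplifies type I interferon, read 7.59 and 7.72 with DMSO, 8.08 and 8.37 at 5 nM and 8.16 and 8.08 at 50 nM. It rose at both doses (0.57 ± 0.11 and 0.47 ± 0.11), while its knock-down change was 0.13 ± 0.11 (adjusted p = 0.486). The 5 nM call of IRF9 (0.13, adjusted p = 0.255) and both calls of IRF7 (0.23 and 0.21, adjusted p = 0.162 and 0.221) were lost with ribosomal protein centring.

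PARP9, PARP14, SAMD9 and SAMD9L all rose with the knock-down. PARP9 and PARP14 are neighbours on chromosome 3 whose proteins handle ADP-ribose, and SAMD9 and SAMD9L are neighbours on chromosome 7 whose proteins restrict poxviruses and growth. SAMD9 read 7.18 and 7.05 with FLI1 shRNA, 6.13 and 5.74 with lacZ shRNA, 6.16 and 6.09 with DMSO, 5.99 and 5.84 at 5 nM and 5.53 and 5.35 at 50 nM. Its knock-down arrays were the highest and its 50 nM arrays the lowest. The rise was 1.18 ± 0.13 (adjusted p = 0.000109), the change at 50 nM −0.68 ± 0.13 (adjusted p = 0.00169), and the change of −0.21 ± 0.13 at 5 nM did not pass. SAMD9L rose by 0.52 ± 0.10 and was called at neither dose.

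PARP14 read 8.17 and 8.07 with FLI1 shRNA, 7.35 and 7.12 with lacZ shRNA, 7.17 and 7.27 with DMSO, 7.85 and 7.63 at 5 nM and 6.65 and 6.65 at 50 nM. Like the IFIT genes it rose with the knock-down (0.88 ± 0.11) and at 5 nM (0.52 ± 0.11) and was lower at 50 nM than at 5 nM. Against DMSO it fell at 50 nM (log2 change −0.57 ± 0.11), as IFIT2 and IFIT5 did, while IFIT1 (−0.37, adjusted p = 0.11) and IFIT3 (−0.35, adjusted p = 0.0629) did not pass there. PARP9 read 7.41 and 7.35 with FLI1 shRNA, 6.73 and 6.54 with lacZ shRNA, 6.49 and 6.54 with DMSO, 6.62 and 6.68 at 5 nM and 5.97 and 5.82 at 50 nM. It differed from PARP14 in that its change at 5 nM, 0.13 ± 0.08, did not pass, and it rose by 0.75 ± 0.08 with the knock-down and changed by −0.62 ± 0.08 at 50 nM. The difference between the 2 genes was not tested. The 5 nM call of PARP14 was lost with ribosomal protein centring (0.18, adjusted p = 0.153), while its knock-down and 50 nM calls were kept.

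The ISG15 group, a ubiquitin-like modifier listed with its protease and with HERC5 and HERC6, had 2 of its 4 genes called with the knock-down, 1 in each direction. ISG15, among the genes most often used to read an interferon response, read 6.94 and 7.09 with DMSO, 6.96 and 7.14 at 5 nM, 7.21 and 7.20 at 50 nM, 7.08 and 7.15 with lacZ shRNA and 6.88 and 7.01 with FLI1 shRNA. The FLI1 shRNA pair lay just below the lacZ shRNA pair, and its knock-down change was −0.17 ± 0.09 (adjusted p = 0.183), the lowest of the list after HERC5. USP18, the protease that removes ISG15, was called nowhere. Of the HERC genes, HERC6 rose with the knock-down (0.58 ± 0.15), and HERC5 was the only member that fell. HERC5 read 4.68 and 4.58 with FLI1 shRNA against 5.02 and 4.87 with lacZ shRNA, a log2 change of −0.31 ± 0.10 (adjusted p = 0.0475 by limma). Its level was close to the median of the olfactory receptor genes, and the call was lost with any 1 of the 4 arrays left out.

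The GTPases MX1 and MX2, which trap viral nucleocapsids, were called in no comparison. MX1 read 5.83 and 5.81 with FLI1 shRNA against 5.27 and 5.66 with lacZ shRNA, and its change of 0.35 ± 0.16 had an adjusted p of 0.155. Of the other effectors, BST2, the protein tetherin that holds budding viruses at the cell surface, read 7.09 and 6.57 with FLI1 shRNA, 5.83 and 5.94 with lacZ shRNA, 5.53 and 5.47 with DMSO, 5.99 and 5.58 at 5 nM and 6.23 and 5.47 at 50 nM. Both knock-down arrays were above all others, though far apart, and the rise was 0.94 ± 0.23 (adjusted p = 0.0133), which was lost without FLI1 shRNA replicate 1 or lacZ shRNA replicate 1. XAF1, a pro-apoptotic protein gene, rose at 5 nM (0.39 ± 0.11, adjusted p = 0.013). The call was lost with ribosomal protein centring (0.048, adjusted p = 0.765) and with the trend on gene span removed (0.20, adjusted p = 0.138).

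CMPK2, a mitochondrial nucleotide kinase gene next to RSAD2, was called higher at 5 nM (0.30 ± 0.07) and 50 nM (0.37 ± 0.07). It read 8.46 and 8.49 in untreated cells, 8.18 and 8.21 with DMSO, 8.52 and 8.47 at 5 nM, 8.52 and 8.61 at 50 nM, 8.54 and 8.59 with lacZ shRNA and 8.45 and 8.53 with FLI1 shRNA. The DMSO arrays stood below the 10 others, and the drug arrays lay next to the untreated ones. With ribosomal protein centring neither call was kept (−0.0387 and 0.11). RSAD2, TRIM22 and ISG20, which encode viperin, an antiviral ring-finger protein and an exonuclease, were called nowhere. In all, 9 of the 35 genes were called in no comparison (ISG15, USP18, MX1, MX2, OAS3, IFI44, RSAD2, TRIM22 and ISG20), and 5 of these were above the olfactory 95th percentile.

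Gene length moved with the drug response, in these genes as in all. The span, the distance from the first to the last base of a gene in RefSeq, ran from 1.04 kb for ISG15 to 109.7 kb for DDX60. At 5 nM the log2 change had a Pearson's r of −0.51 and a Spearman's rho of −0.59 with log10 span across the 35 genes, and −0.49 and −0.52 across 16897 protein-coding genes with a span. The genes that fell at 5 nM, RIGI (70.9 kb), DDX60, EIF2AK2 (57.8 kb) and IFI44L (25.7 kb), were longer than IFIT1 (13.9 kb), IFIT2 (7.23 kb) and IFI6 (6.13 kb). PARP14 (50.002 kb), OAS2 (33.2 kb) and CMPK2 (26.1 kb), also called higher at 5 nM, are each longer than IFI44L. With the trend on span removed the 5 nM call of CMPK2 was lost (adjusted p = 0.0536 by limma), and those of PARP14 and OAS2 were kept. Ribosomal protein centring, which does not use span, lost the 5 nM calls of all of these genes. It also lost those of shorter genes, for example IRF7, IRF9 and IFIT5. At 50 nM the relation was weaker (r of −0.23 and rho of −0.27 across the 35), and IFIT5, which fell there, spans 6.43 kb. With the knock-down it was near 0 (r of 0.02). With the trend on span removed over all genes, IFIT1 (1.31), IFIT2 (0.93), IFI6 (0.75) and IFIT3 (0.44) were still called at 5 nM, as were the falls of RIGI (−0.85), IFI44L (−0.66), EIF2AK2 (−0.48) and DDX60 (−0.27, adjusted p = 0.0491), while IFIT5 (0.14, adjusted p = 0.292) and IRF9 (0.17, adjusted p = 0.225) were not. The part of gene length in these changes was not tested further.

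**Figure D4:**
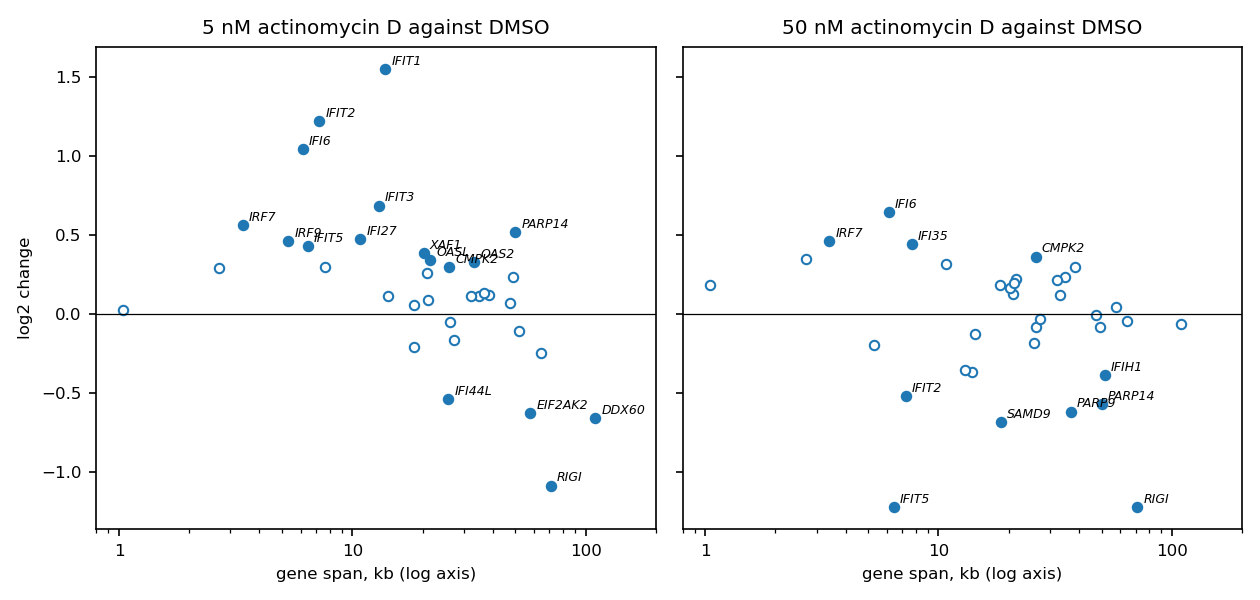
Log2 change at 5 nM (left) and 50 nM (right) actinomycin D against gene span in kb (log axis) for the 35 genes, filled and named where the adjusted p was under 0.05. At 5 nM the short IFIT genes and IFI6 lie at the top and RIGI, DDX60 and EIF2AK2 at the bottom right, while at 50 nM the short gene IFIT5 lies as low as RIGI.

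The rest of the pathway was read from lists of ligands, receptors, kinases and factors, sensors and inhibitors. Over all genes with a span the 5 nM change had a Pearson's r of −0.49 with log10 span. The calls of these lists were not read with that trend removed, and the part of gene length in them was not tested. The shares of all genes to read their counts against are 14.6% higher and 9.28% lower with the knock-down, 30.3% and 23% at 5 nM, 25.8% and 23.3% at 50 nM, and 21.6% and 23.1% between the doses. None of the 16 interferon ligands measured of 21 listed rose with the knock-down, 1 fell (IFNL2, −0.54 ± 0.15), and 0 rose and 1 fell at 5 nM (IFNG, −0.27 ± 0.10). IFNG had a mean log2 signal of 3.66, below the median of the olfactory receptor genes, so its difference is one between background readings. IFNB1, the interferon that most cells make first, was as dim, with a mean log2 signal of 3.40, and changed by −0.04 ± 0.08 with the knock-down and by −0.19 ± 0.08 at 5 nM, neither of which passed.

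Of the 6 receptor chains 3 rose with the knock-down (14.6% of all genes), led by IL10RB (0.76 ± 0.10), a chain shared by the type III receptor. At 5 nM IFNGR1 (0.97 ± 0.09), IFNLR1 (0.54 ± 0.11) and IFNAR2 (0.37 ± 0.09) rose and IFNAR1 fell (log2 change −0.95 ± 0.10), and 0 rose and 4 fell at 50 nM (23.3% of all genes were lower). Between the doses 5 of the 6 were lower at 50 nM (23.1% of all genes), with IFNGR1 at −1.93 ± 0.09.

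Among 9 kinases and factors, 2 rose and 0 fell with the knock-down, and 2 rose and 4 fell at 5 nM. The rises, 22.2% in both comparisons, compare with 14.6% and 30.3% of all genes, and the falls at 5 nM, 44.4%, with 23%. IRF2, which often acts as a repressor at interferon-responsive promoters, had opposite changes, 1.20 ± 0.07 with the knock-down and −2.35 ± 0.07 at 5 nM, a difference of 3.55 ± 0.10 (adjusted p = 3.81e-08). IRF1, the activator that competes with it, rose at 5 nM (1.62 ± 0.18, adjusted p = 1.84e-05) while its change of 0.39 ± 0.18 at 50 nM did not pass, and from 5 nM to 50 nM it changed by −1.22 ± 0.18. JAK1 fell at 5 nM (log2 change −1.27 ± 0.08).

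Of 15 sensing genes 4 rose and 2 fell with the knock-down, and 3 rose and 3 fell at 5 nM. The 5 nM counts are below the 30.3% and 23% of all genes. TLR3, the endosomal sensor of double-stranded RNA, rose and fell in the comparisons in which IFIT2 and IFIT5 did, with 1.37 ± 0.08 with the knock-down, 1.01 ± 0.08 at 5 nM, −0.67 ± 0.08 at 50 nM and −1.68 ± 0.08 between the doses. MAVS, the adaptor below RIG-I and MDA5, fell at 5 nM (log2 change −1.19 ± 0.07), as did TRAF3 (log2 change −1.72 ± 0.11), and TBK1, the kinase that activates IRF3, fell most at 50 nM (log2 change −2.17 ± 0.07). Of 6 negative regulators 3 rose with the knock-down (14.6% of all genes). SOCS1, the inhibitor of JAK kinases that interferon itself induces, rose by 0.84 ± 0.13 with the knock-down and by 1.85 ± 0.13 at 5 nM (adjusted p = 5.85e-07), a difference of −1.01 ± 0.18 (adjusted p = 0.00101), and PTPN2, a phosphatase of the pathway, fell at 5 nM (log2 change −1.55 ± 0.12).

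A further list of 55 interferon-stimulated genes, with 49 measured and none shared with the 37, gave a count like that of the first in the knock-down comparison: 21 of 49 rose, or 42.9%, and 0 fell, beside 14.6% and 9.28% of all genes. At 5 nM 23 rose, or 46.9%, and 4 fell, or 8.16%, beside 30.3% and 23% of all genes. At 50 nM 15 rose and 8 fell, or 30.6% and 16.3%, beside 25.8% and 23.3%, and between the doses 6 were higher and 17 lower, or 12.2% and 34.7%, beside 21.6% and 23.1%. With the knock-down the largest rises were CD274, the checkpoint ligand PD-L1 (1.47 ± 0.18), GBP3 (1.04 ± 0.15), CCL5, a T cell chemokine (0.87 ± 0.12), and TRIM5 (0.58 ± 0.09). At 5 nM they were IFI30, a lysosomal reductase (2.16 ± 0.13), IFITM1 (1.19 ± 0.07), TAP2 (0.90 ± 0.08) and ZNFX1 (0.90 ± 0.11), and ZNFX1 changed by −2.16 ± 0.11 from 5 nM to 50 nM. DTX3L, the partner of PARP9 that starts next to it on the opposite strand, changed by 0.44 ± 0.12 with the knock-down, 0.58 ± 0.12 at 5 nM and −0.83 ± 0.12 at 50 nM.

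Markers of other cells were read on the same arrays. With the knock-down 0 of 7 blood and 0 of 4 epithelial markers were called, and 1 of 3 endothelial markers, PECAM1, fell, while the mean of the blood markers was 5.07 and 5.07 with FLI1 shRNA against 5.08 and 5.14 with lacZ shRNA. Above the olfactory 95th percentile were 2 of 7 blood, 1 of 4 epithelial and 1 of 3 endothelial markers. PTPRC, the pan-leukocyte marker, lay below it, and its knock-down change was −0.03 ± 0.08. At 5 nM 2 of 7 blood markers rose (CD3E, 0.58 ± 0.10, and CD14, 0.55 ± 0.14) with 1 of 3 endothelial and 0 of 4 epithelial ones, where 30.3% of all genes rose, and the blood mean was 5.15 and 5.26 against 4.91 and 5.03 with DMSO. At 50 nM 3 of 7 blood and 2 of 3 endothelial markers rose, where 25.8% of all genes did, with a blood mean of 5.15 and 5.23. These means are within the range of the olfactory receptor genes, and their part in the drug results was not tested.

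The drug comparisons depend on what is taken as unchanged. Centring each array on 56 ribosomal protein genes moved the median of all genes from 0.12 to −0.22 at 5 nM and from 0.10 to −0.15 at 50 nM, and in the knock-down comparison from −0.01 to 0.01. Under it 4 of the 35 genes rose and 12 fell at 5 nM, and 1 rose and 17 fell at 50 nM, while IFIT1 (1.22), IFIT2 (0.88), IFI6 (0.71) and IFIT3 (0.35, adjusted p = 0.046) were the 4 that still rose at 5 nM. The shift is the same for every gene of a comparison, so the median of the list minus that of all genes stayed at 0.01 at 5 nM, −0.10 at 50 nM and 0.36 with the knock-down. The calls of the other pathway lists and of the markers were not read under this centring, so their drug rises carry the same limit. Neither were they read with the trend on gene span removed, which limits their drug rises and falls alike.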

How the data were processed

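RNA of A673 cells was profiled on 12 HuGene 1.0 ST arrays, 2 for each of 6 groups taken from the sample labels. The values deposited by the authors are log2 signals, made by background correction, RMA normalisation and log2 conversion with the affy package (version not given in the sources used here), 32321 rows without counts or detection calls. Probe sets were named from the platform annotation: 19158 rows had 1 gene symbol, 1388 several and 11775 none, and only rows with 1 symbol were used, which gave 18404 genes. For the 637 genes with several such rows the one with the highest mean over the 12 arrays was kept.

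Comparisons were fitted with limma 3.58.1 in R 4.3.3 on all 12 arrays, with a mean per group, contrasts, empirical Bayes moderation (6 residual and 4.45 prior degrees of freedom) and Benjamini-Hochberg adjustment over all genes. Genes rose or fell where the adjusted p was under 0.05, and counts are also given at the study's thresholds. The fit was tested on simulated data. No depth exists for arrays, and their number limits the precision. Values on every array are given for the called members among the largest 6 changes of a comparison in either direction and for genes that anchor a role. Of the other pathway lists up to 4 rises and 4 falls of a comparison are named. The members and lists were chosen with earlier results of these data known.

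Settings tried beside this fit were a block on the replicate number, fits restricted to the arrays being compared, removal of genes below the 40th percentile, the mean over probe sets, quantile normalisation again, centring on ribosomal protein genes with a log2 signal over 8, a mean-variance trend with robust moderation, removal of a lowess trend on gene span, and each array left out. Crossed replicate numbers were added after the data were seen. Gene spans and promoters come from RefSeq (GRCh38.p14), a build used for annotation and not for the array values. IFIT2, OAS2, OASL, IRF7, TRIM22, MX2 and USP18 have no promoter in that table. Some genes of the pathway and marker lists were not analysed here.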

Additional observations from a re-analysis of the deposited data

Results flagged for a closer look

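IFI44L and DDX60 were the members that passed the test in both arms with opposite signs, a combination that was not counted over all genes. In both, the FLI1 shRNA arrays lay above the lacZ shRNA arrays and the 5 nM actinomycin D arrays lay below the DMSO arrays. The response to the knock-down minus the response to 5 nM was 1.32 on the log2 scale for IFI44L and 1.90 for DDX60, and both passed the test of that difference (adjusted p = 2.23e-05 and 3.23e-06 by limma). Arrays of opposite direction that did not overlap their controls were also seen in SAMD9, HERC6 and EIF2AK2 and, with the signs exchanged, in HERC5 and CMPK2, where 1 of the arms did not pass. Such non-overlap was not counted over all genes either, so it has no background to be read against. DDX60 read close to the olfactory receptor genes in every group but the FLI1 shRNA one.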

How the results depend on the processing

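In the knock-down comparison the 18 rises stayed at 18 with the replicate number as a block, with crossed numbers, with ribosomal protein centring and with the span trend removed, and became 7 without dim genes, where only 15 of the 35 genes are left. The median log2 change of those 15 was 0.18, against 0.04 over all genes left. The list minus all genes was thus 0.14 without dim genes, beside 0.36 in the main fit. Leaving out 1 array gave 12 to 14 rises, and 0 to 0 falls. The single fall, HERC5, was also lost with crossed numbers, without dim genes, with quantile normalisation again and with a trend and robust moderation (0 each). At 5 nM the 13 rises became 6 without dim genes, 4 with ribosomal protein centring and 8 with the span trend removed, and 9 to 13 with 1 array left out, and the 4 falls became 12 with ribosomal protein centring and stayed at 4 to 4 with 1 array left out. With that centring OAS2 (−0.0081) and CMPK2 (−0.0387) changed sign at 5 nM. At 50 nM the 4 rises became 1 with ribosomal protein centring, 2 with the span trend removed and 3 to 6 with 1 array left out, and the 7 falls became 3 without dim genes, 17 with ribosomal protein centring and 5 to 9 with 1 array left out. Between the doses the 10 lower genes became 4 without dim genes and 8 to 12 with 1 array left out, and the 3 higher ones 2 to 4. The rise of IFI6 in lacZ shRNA against untreated cells was lost in a fit of those 4 arrays (0 rises, adjusted p = 0.0862) and with any 1 of them left out (0 to 0), while 2 genes rose without dim genes, with quantile normalisation again and with a trend and robust moderation. DMSO against untreated cells gave 0 calls under all of these settings. Of the differences between the responses to knock-down and 5 nM, the 10 higher ones became 5 without dim genes, 16 with ribosomal protein centring and 8 to 13 with 1 array left out, and the 4 lower ones 0 with ribosomal protein centring, 2 with the span trend removed and 3 to 5 with 1 array left out. Where the counts are lower without dim genes, 20 genes had left the test, and ribosomal protein centring shifts every gene alike. The cause of the other changes was not tested. Deviations of same-numbered arrays correlated at 0.049 to 0.34 among the DMSO, 5 nM, 50 nM and lacZ shRNA groups, at 0.17 between untreated and FLI1 shRNA, and at −0.45 to −0.021 between these sets. Not every pair was over 0.1 and the labels name no shared batch, so the numbers were not used to pair arrays, and shared batches with numbers crossed in untreated and FLI1 shRNA were not tested as a whole. The replicate block gave 8 falls at 50 nM and 11 lower genes between the doses, dropped IRF7 from the differences (−0.44, adjusted p = 0.0576) and changed no other call of the 35 genes downwards. With the numbers crossed in the shRNA and control comparisons the calls were 18 rises and 0 falls, 1 rise, and 0. Each of these fits crossed 1 group alone, FLI1 shRNA, lacZ shRNA or DMSO in turn. They therefore cannot show the effect of numbers crossed in untreated and FLI1 shRNA together. With 2 arrays a group, changes well under 0.3 on the log2 scale were seldom called.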
